A study of Mus musculus with 18 samples.

Results

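The 6 libraries described here compared mRNA on heavy polysomes with total mRNA in resting RAW264.7 cells, an established mouse macrophage-like line. They were all the control libraries of a set of 18, and came from 3 of its 9 lysates: each control lysate gave 1 polysome-associated and 1 total mRNA library, which the labels tie together by experiment number. Control cells received the DMSO vehicle. The other lysates came from RAW264.7 cells given 500 ng/mL LPS, a bacterial cell wall component, for 6 h (LPS), or the same LPS after 15 min with 100 nM torin1, an inhibitor of the kinase mTOR (LPS+torin1), with 3 lysates in each group. They were used for the common estimate of spread and for a closing comparison. The authors separated lysates on sucrose gradients after cycloheximide had stopped elongation, pooled the heavy polysome fractions (a threshold of at least 3 ribosomes), and took total RNA from a part of the same lysate kept aside. All groups shared 1 cell line, and no lysate represents an animal.

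An mRNA in use carries several ribosomes at once, and their number rises with how often initiation succeeds and with the time a ribosome needs to cross the coding sequence. Pooling the heavy end of a gradient therefore collects mRNAs with many ribosomes and leaves behind mRNAs that are idle, held in other particles or too short to hold many. Some mRNA classes are known for controls of their own: mRNAs with a 5′ terminal oligopyrimidine tract (TOP mRNAs) encode ribosomal proteins and other parts of the translation machinery and answer to mTOR, ferritin mRNAs carry an iron-responsive element that a repressor protein can occupy, and replication-dependent histone mRNAs end in a stem-loop instead of a poly(A) tail.

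The control libraries held 27800983 to 38175777 counts for total mRNA and 37395300 to 45801886 for heavy polysomes, over 11243 protein-coding genes. Macrophage identity was checked with 13 markers, all of them counted. Their summed level was 14110 to 15450 CPM (counts scaled to a common library total) in total mRNA and 20510 to 21850 CPM on heavy polysomes. Of the T cell markers only Lck was counted, at 3.49 to 5.30 CPM in total mRNA, and no B cell, fibroblast or epithelial marker was among the genes counted, although the table keeps only genes with at least 1 count in every library. Replicate libraries differed by more than sampling noise, with a chi-square per degree of freedom of at least 26.3 in every pair, so none was a copy of another.

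The elements below are shown because they mark 3 of the mRNA classes described: histone, ferritin and TOP mRNAs. The first set is the 3′ histone stem-loop of the highest-loaded gene of each histone class whose annotated transcript holds the sense-strand letters GGC, any base, CTT, any base, T, any base, AG, any base, GCC, and of H2afx. Capitals mark the stem-loop, written as DNA in GENCODE M21 transcripts on GRCm38.
Hist1h4h (chr13:23531453-23531478, plus strand, 3′ UTR): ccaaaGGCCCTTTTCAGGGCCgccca
Hist1h3a (chr13:23761885-23761910, minus strand, 3′ UTR): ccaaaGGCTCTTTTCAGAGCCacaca
Hist1h2ad (chr13:23574890-23574915, plus strand, 3′ UTR): acaaaGGCTCTTTTCAGAGCCatcca
Hist1h2bj (chr13:22043633-22043658, plus strand, 3′ UTR): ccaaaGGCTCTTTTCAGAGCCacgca
Hist1h1c (chr13:23739507-23739532, plus strand, 3′ UTR): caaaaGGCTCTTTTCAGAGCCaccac
H2afx (chr9:44335235-44335260, plus strand, 3′ UTR): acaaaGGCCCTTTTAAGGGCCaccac
These letters stood in the 3′ UTR of 37 of 55 replication-dependent histone genes with a coding transcript, and in 40 of 11100 genes in all (0.36%). The second set is the 5′ iron-responsive element, searched in the 5′ UTR as a C, 5 bases, the loop CAGTGN and 5 bases that pair with the first 5. Capitals run from the C to the end of the stem.
Fth1 (chr19:9982733-9982759, plus strand): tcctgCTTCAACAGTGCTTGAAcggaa
Ftl1 (chr7:45459780-45459806, minus strand): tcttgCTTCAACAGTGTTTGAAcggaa
Slc40a1 (chr1:45925466-45925492, minus strand): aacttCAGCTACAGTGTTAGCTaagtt
The iron-responsive letters were found in 23 of the 11100 genes (0.207%), including 4 of the 5 listed members. The third set is the first 20 bases of 4 mRNAs at RefSeq starts (GRCm38.p6), picked among those that open with a C and 4 pyrimidines. The opening run of pyrimidines is in capitals. Rps18, Rps6 and Rplp2 are ribosomal protein genes, and Rack1 (Gnb2l1 in the counts) was listed among TOP mRNAs outside the ribosome.
Rps18 (chr17:33955646-33955665, minus strand): CTCTCTTCCacaggaggcct
Rps6 (chr4:86857348-86857367, minus strand): CTCTTTTTCgtgacgcctcc
Rplp2 (chr7:141447651-141447670, plus strand): CTTTCgccgccggacgccgc
Rack1 (chr11:48800360-48800379, plus strand): CTTTTTCTCCacagggtcgt
A C followed by 4 pyrimidines opened at least 1 annotated start of 14 of 58 ribosomal protein genes in the RefSeq table (24.1%) and of 250 of 8568 counted genes (2.92%). Annotated starts can miss the true first base, so no match says only that the letters are not at that position.

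Loading is used here for the log2 ratio of heavy polysome to total mRNA after TMM scaling, so that 0 is the level of an average mRNA and not an absolute amount of translation. Of 11243 genes, 3845 (34.2%) were higher on heavy polysomes than in total mRNA and 3468 (30.8%) were lower, with 65.0% called in either direction at an adjusted p of 0.05 (edgeR's quasi-likelihood test with the lysate as block, Benjamini-Hochberg over all genes). These shares are the background against which each count of list members is given. List medians are given with the SD of the medians in the 3 lysates. Loading ran from −1.01 at the 5th percentile to 1.07 at the 95th, and 684 called genes were at least 2-fold higher and 575 at least 2-fold lower. Of the 7313 called genes, 7264 had 1 sign in all 3 lysates.

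The plot of list medians by lysate gives the order of the 29 gene lists examined. Replication-dependent histones stood at its upper end, followed at a distance by nuclear-encoded respiratory chain subunits, selenoproteins and small-subunit ribosomal proteins. Mitochondrially encoded mRNAs stood at its lower end, below zinc finger genes, cytosolic chaperones and SR proteins.

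**Figure D1:**
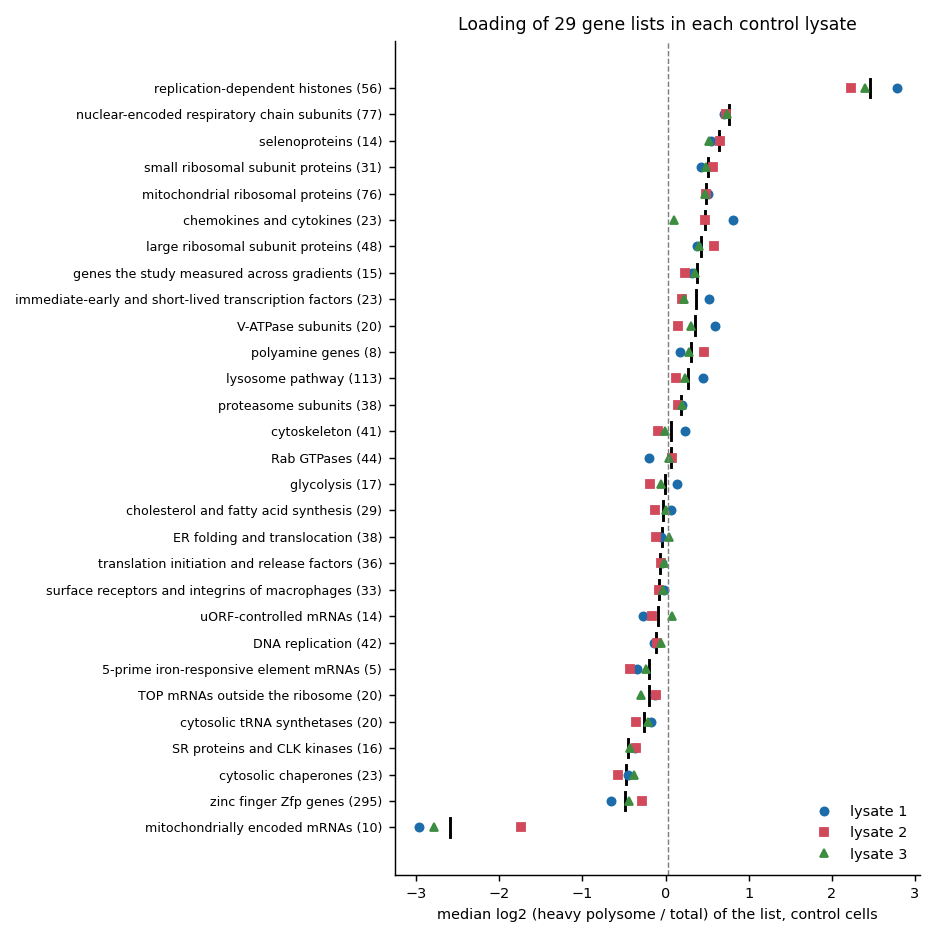
Median loading of 29 gene lists (rows, number of members counted in parentheses) in each control lysate (symbols), on the log2 heavy polysome over total axis. The black bar is the median of the fitted loading and the dashed line the median of all genes; the histone medians lie between 2.23 and 2.78, and the mitochondrially encoded medians between −2.97 and −1.73.

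Replication-dependent histone mRNAs, which package newly made DNA and are made in S phase, were the best-loaded class. Of 56 genes counted, 53 (94.6%, against 34.2% of all genes) were higher on heavy polysomes and 2 were lower, with a median loading of 2.46 ± 0.28 (SD, n = 3 lysates), a fold of 5.52. The 10 highest genes of the whole table by the naming rule were all histones, with loadings from 2.80 to 3.29. Every class took part: the median was 1.79 for the 5 linker H1 genes, 2.27 for 14 H2A, 2.46 for 14 H2B, 2.55 for 10 H3 and 2.78 for 13 H4 genes. The summed mean level of H4 genes was 419.9 CPM in total mRNA and 2720 CPM on heavy polysomes.

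Hist1h4k, an H4 gene, measured 24.7, 9.35 and 15.9 CPM in the total mRNA of lysates 1 to 3, and 296, 61.2 and 185 CPM on heavy polysomes. All 3 polysome libraries lay above all 3 total libraries, although the level itself differed several-fold between lysates. Its loading was 3.29 with an SE of 0.41 (adjusted p = 2.49e-05, edgeR). Hist1h4b had the same loading of 3.29 from lower levels, 1.39 to 9.04 CPM in total mRNA and 10.96 to 100.05 CPM on heavy polysomes. The linker gene Hist1h1e, the lowest of the 5 H1 genes, measured 233, 187 and 224 CPM in total mRNA and 801, 536 and 604 CPM on heavy polysomes, a fold of 2.98.

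The exceptions were few. Hist3h2a fell from 5.87, 3.21 and 1.85 CPM in total mRNA to 0.728, 0.702 and 1.00 CPM on heavy polysomes, a loading of −2.03 with an SE of 0.35 (edgeR adjusted p = 0.000193), and lay outside the naming rule. Hist2h2be, an H2B gene, had a loading of −0.60 (edgeR adjusted p = 0.00671), and Hist2h3c2 −0.34 (edgeR adjusted p = 0.357). Carrying the stem-loop letters did not separate these, as Hist3h2a held them. As measured, the 37 genes with the letters had a median loading of 2.45 and the 18 without them 2.50. With GC content corrected these medians were 1.96 and 1.43, and with GC content and transcript length corrected 1.44 and 0.96. Transcript models that stop early hold no 3′ UTR, and counts of nearly identical histone genes can be shared between copies, so the values of single histone genes are uncertain. Of 9 replacement and other histone genes, which are mostly not tied to S phase, 7 were higher and none lower, at a median of 0.68. H2afz, the H2A.Z variant, had a loading of 1.17 (SE 0.14), H3f3a, an H3.3 gene, 1.04 (SE 0.10), and H2afx, whose mRNA can end in the stem-loop shown above, 1.35 (SE 0.20).

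Mitochondrially encoded mRNAs, which are translated inside mitochondria by a separate ribosome, were the worst-loaded class. All 10 counted were lower (30.8% of all genes were), with a median loading of −2.59 ± 0.67 (SD, n = 3 lysates), a level 6.03-fold lower on heavy polysomes. They took 1.98% to 2.50% of the counts of total mRNA and 0.471% to 0.778% of those on heavy polysomes. mt-Nd1, a subunit of complex I, measured 3078, 2511 and 3278 CPM in total mRNA and 200, 349 and 295 CPM on heavy polysomes. All polysome libraries lay below all total libraries, and the gene was 10.7-fold lower with an SE of 0.19 on the log2 scale (edgeR adjusted p = 6.44e-07). mt-Co1, the catalytic subunit of complex IV, was lower by less, from 12850, 11119 and 12808 CPM to 3004, 4703 and 4517 CPM, a 3.06-fold difference. The lysates did not behave alike: the median loading was −2.97, −1.73 and −2.79 in lysates 1 to 3. mt-Nd5 and mt-Nd6 overlap on opposite strands and mt-Co3 overlaps mt-Atp6, so these were read only as members of the class.

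**Figure D2:**
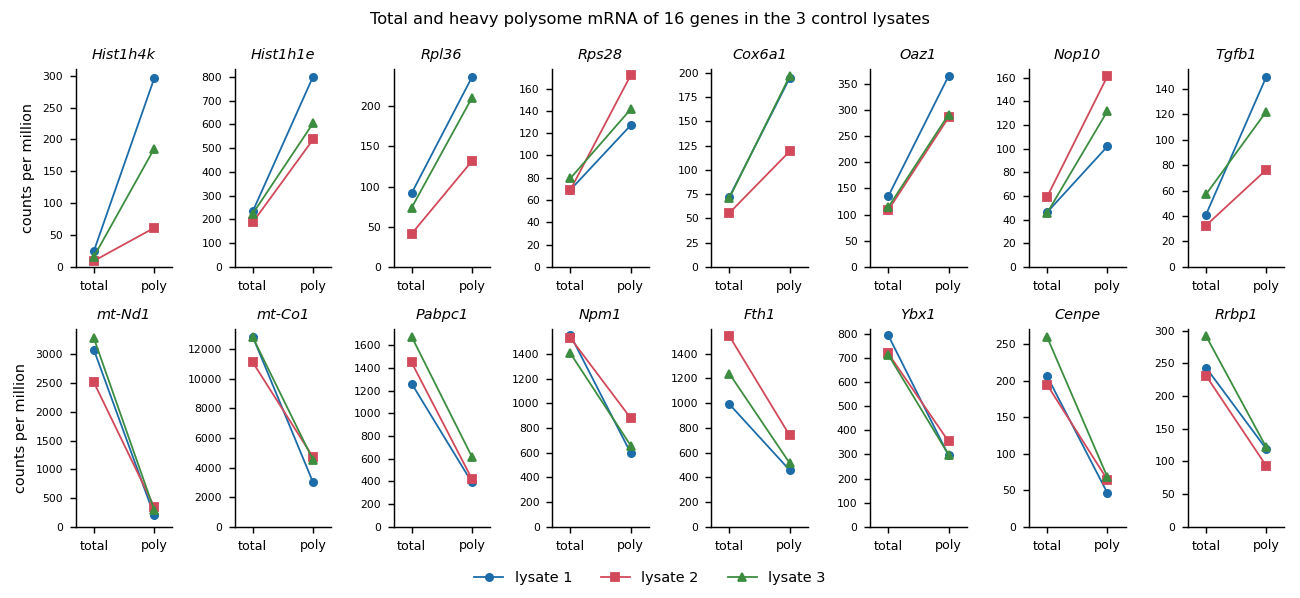
Levels in CPM (vertical axes, each from 0) of 16 genes in total mRNA and on heavy polysomes, with 1 line per control lysate. All lines of the upper row run upward and all lines of the lower row run downward, from 24.7 to 296 CPM for Hist1h4k and from 3078 to 200 CPM for mt-Nd1 in lysate 1.

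The ribosome's own protein mRNAs were loaded somewhat above the average. Of 48 large-subunit genes 31 (64.6%, against 34.2% of all genes) were higher and 2 lower, with a median loading of 0.42 ± 0.11 (SD, n = 3). Of 31 small-subunit genes 23 (74.2%) were higher and 1 lower, with a median of 0.51 ± 0.07. Rpl36 measured 91.7, 41.2 and 73.6 CPM in total mRNA and 236, 132 and 211 CPM on heavy polysomes, the highest loading of the large subunit at 1.52 (SE 0.34). With GC content and transcript length corrected this loading was 0.14 (edgeR adjusted p = 0.525). Rpl37 was 2.29-fold higher (SE 0.12 on the log2 scale), while Rpl5 and Rpl4 were lower by 0.31 and 0.27 on the log2 scale. In the small subunit, Rps16 had 1.32 with widely differing lysates (1.14, 2.51 and 0.32) and Rps28 1.01 (SE 0.16). Rpsa, the laminin receptor protein of the small subunit, was lower, at −0.32 (edgeR adjusted p = 0.0177), and Rps4x had −0.17 (edgeR adjusted p = 0.229). Ribosomal protein genes have many processed copies in the genome, so their counts are uncertain to that extent.

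Other TOP mRNAs leaned to the lower side. Of 20 genes counted, 3 were higher (15.0%, against 34.2% of all genes) and 9 were lower (45.0%, against 30.8%). The median was −0.20 ± 0.10 (SD, n = 3). Pabpc1, the main cytoplasmic poly(A)-binding protein, which is known to bind its own mRNA, measured 1261, 1447 and 1674 CPM in total mRNA and 391, 422 and 617 CPM on heavy polysomes. It was 3.11-fold lower, with a loading of −1.64 (SE 0.17, edgeR adjusted p = 1.11e-05). Npm1, a nucleolar ribosome assembly factor, was 2.13-fold lower, Tpt1 (translationally controlled tumour protein) 1.52-fold lower and Eef1a1, the elongation factor that brings tRNA to the ribosome, 1.36-fold lower. At the other end Eif3f and Eif3k, subunits of initiation factor eIF3, had loadings of 0.56 and 0.49.

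Initiation and release factors split. Of 36 genes 10 were higher (27.8%, against 34.2% of all genes) and 14 lower (38.9%, against 30.8%), with a median of −0.07. Eif4ebp1 and Eif4ebp2, the small proteins that sequester the cap-binding factor when mTOR is inactive, had the highest loadings, 1.09 (SE 0.15) and 1.23 (SE 0.18). Eif5a, which helps ribosomes through difficult peptide bonds, measured 886, 917 and 909 CPM in total mRNA and 1934, 1689 and 1605 CPM on heavy polysomes. Eif3a, the largest eIF3 subunit, and Gspt1, the release factor eRF3, were lower by 0.85 and 0.78 on the log2 scale. Of 20 cytosolic tRNA synthetases, 3 were higher (15%, against 34.2% of all genes) and 9 lower (45%, against 30.8%). Their median was −0.26 ± 0.10 (SD, n = 3). Tars and Eprs, which charge threonine and glutamate or proline tRNAs, both had −0.86. Yars and Vars, for tyrosine and valine, had 0.46 and 0.58.

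Nuclear-encoded mitochondrial proteins were loaded above the average in both lists examined. Of 77 respiratory chain subunits 65 (84.4%) were higher and 2 lower, with a median of 0.76 ± 0.02 (SD, n = 3). Cox6a1, a small subunit of complex IV, measured 72.0, 55.6 and 71.0 CPM in total mRNA and 195, 119.1 and 197 CPM on heavy polysomes, a fold of 2.52. Ndufc2 of complex I had a loading of 1.26 (SE 0.15). Sdha, the catalytic subunit of complex II, and Ndufs1 of complex I were lower, at −0.44 and −0.46. Of 76 mitochondrial ribosomal protein genes, 52 (68.4%, against 34.2% of all genes) were higher and 6 lower (median 0.49 ± 0.02, SD, n = 3). Mrpl12 and Mrps12 had 1.37 and 1.32, while Mrps15 had −0.95 and Mrpl1 fell from between 41.7 and 49.4 CPM to between 19.1 and 26.4 CPM.

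Zinc finger genes and splicing factors leaned to the lower side, while replication genes were divided and short-lived transcription factors leaned upward. Of 295 Zfp genes, which mostly encode DNA-binding zinc finger proteins, 47 (15.9%) were higher and 162 (54.9%) lower, with a median of −0.48 ± 0.19 (SD, n = 3). Zfp933 went from 15.5, 13.5 and 17.1 CPM to 3.34, 4.78 and 4.59 CPM, a 3.64-fold difference, and Zfp942 had −1.67. Zfp574 and Zfp358 were in the opposite tail, at 1.50 and 1.43. Of 16 SR splicing factors and CLK kinases 3 were higher and 11 (68.8%, against 30.8% of all genes) lower (median −0.45 ± 0.04, SD, n = 3). Clk1, a kinase of SR proteins whose transcripts are often retained in the nucleus, had −1.17 and Srsf5 −1.07, while Srsf9 had 0.87 and Srsf4 0.46. DNA replication genes were divided, with 12 of 42 higher (28.6%, against 34.2% of all genes) and 16 lower (38.1%, against 30.8%). Gins2 and Fen1, a helicase subunit and a flap nuclease, had 1.22 and 0.99. Pola1 and Mcm4, a polymerase and a helicase subunit, had −1.01 and −0.61. Immediate-early and other short-lived transcription factors were higher in 10 of 23 (43.5%, against 34.2% of all genes) and lower in 1. Junb and Jund, which form AP-1, had 1.26 and 1.19, Klf6 had −0.68, and Klf10 had −0.14 (edgeR adjusted p = 0.243).

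Protein folding and breakdown gave mixed results. Of 23 cytosolic and mitochondrial chaperones 6 were higher and 14 (60.9%, against 30.8% of all genes) lower, with a median of −0.47 ± 0.09 (SD, n = 3). Hspd1 and Hspe1, the large and small parts of the mitochondrial chaperonin, which lie head to head in the genome and overlap there, differed in direction: Hspd1 was lower in all 3 lysates, at −0.88 (SE 0.13), and Hspe1 higher in all 3, at 0.89 (SE 0.11). Pfdn5, a prefoldin subunit, had 0.74 and Dnaja1, an HSP70 partner, −0.86. Of 38 proteasome subunits 17 were higher (44.7%, against 34.2% of all genes) and 8 lower (21.1%, against 30.8%), with a median of 0.19. Psmb9, an immunoproteasome subunit, had 1.05 and Psmd9 0.98, while the ATPase subunits Psmc1 and Psmc6 had −0.86 and −0.76. Of 38 genes of folding and translocation in the endoplasmic reticulum 12 were higher and 12 lower (31.6% each), near the shares of all genes (34.2% and 30.8%). Sdf2l1 and Spcs1 had 1.23 and 0.95, and the abundant chaperones Calr and Hsp90b1 −0.69 and −0.64.

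Lysosome genes, the class the study was concerned with, were loaded slightly above the average. Of the genes in the KEGG lysosome pathway as the study listed it, 52 were higher (46.0%, against 34.2% of all genes) and 18 lower (15.9%, against 30.8%). The other 43 were neither, and the median was 0.27 ± 0.17 (SD, n = 3). Abca2, a lysosomal lipid transporter, had 1.26 and Smpd1, acid sphingomyelinase, 1.06. Ap3s1, an adaptor subunit, had −0.80. Of the 20 V-ATPase subunits, which acidify the lysosome, 9 were higher (45%, against 34.2% of all genes) and 6 lower (30%, against 30.8%). Atp6v1g1 and Atp6v1f had 0.99 and 0.97, and Atp6v1h and Atp6v1a −0.85 and −0.75. Rab GTPases were near the shares of all genes (34.2% higher and 30.8% lower), with 14 of 44 higher (31.8%) and 15 lower (34.1%). They ran from Rab4b at 1.75 and Rab1b at 1.10 to Rab6a at −0.79 and Rab1 at −0.91.

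The study followed 15 genes across gradients by qRT-PCR, some of them picked for their response to LPS in these libraries. Of these, 8 were higher (53.3%, against 34.2% of all genes) and 2 lower (13.3%, against 30.8%). Lamp1, a lysosomal membrane protein, measured 843, 851 and 835 CPM in total mRNA and 836, 855 and 953 CPM on heavy polysomes. The libraries overlapped, and the loading was 0.06 (SE 0.10, edgeR adjusted p = 0.617). Atp6v1h, the regulatory H subunit of the proton pump, went from 103, 118.1 and 99.7 CPM to 56.7, 59.9 and 60.6 CPM, a 1.81-fold difference, while Atp6v1d had −0.08 (edgeR adjusted p = 0.525). The aspartic protease Ctsd had 0.46, and the dipeptidyl peptidase Ctsc −0.29. Npc2, a cholesterol carrier, had 0.47, Cln3 0.66, the metal transporters Slc11a1 and Slc11a2 0.73 and 0.89, and the sulfatase Sgsh 0.50. M6pr, Hyal1 and the reference gene Actb did not pass, at 0.20, −0.22 and 0.09. The reference genes Ppia and B2m did, at 0.89 and 0.38.

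Genes of the macrophage surface were divided, and its secreted signals leaned upward. Of 33 receptors and integrins 10 were higher (30.3%) and 9 lower (27.3%), near the shares of all genes (34.2% and 30.8%), with a median of −0.07. Itgb5, an integrin, and Lrp1, a scavenger receptor with a coding sequence of 13638 nt, had 0.89 and 0.86, while Ptprc (CD45) and the glucan receptor Clec7a had −0.87 and −1.02. Of 23 chemokines and cytokines 10 (43.5%) were higher and 1 lower, with a median of 0.48 and a wide spread between lysates (0.82, 0.47 and 0.10). Tgfb1 measured 41.0, 32.5 and 57.0 CPM in total mRNA and 149, 76.4 and 122 CPM on heavy polysomes, a fold of 2.63. Tnf had 0.61 (SE 0.14) and Osm 0.82, Il18 was lower at −0.48, and the abundant Spp1 had −0.34 (edgeR adjusted p = 0.121). Of the 13 macrophage markers themselves 7 were higher (53.8%, against 34.2% of all genes) and 3 lower (23.1%, against 30.8%). They ran from the transcription factor Spi1, 2.29-fold higher, and Tyrobp at 0.66 to Ctss at −0.37 and Mpeg1 at −0.39. Lck had 0.65.

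Glycolysis, lipid synthesis and cytoskeleton lists were centred near the average as measured, and selenoproteins above it. Of 17 glycolysis genes 3 were higher (17.6%, against 34.2% of all genes) and 4 lower (23.5%, against 30.8%), with a median of 0.00. Pgam1 and Tpi1 had 0.51 and 0.45, and Hk1 and Pfkp −0.65 and −0.75. Of 29 genes of cholesterol and fatty acid synthesis 11 were higher and 11 lower (37.9% each). They ran from Mvk at 1.24 to Cyp51 at −0.68 and Elovl6 at −0.85. Of 41 cytoskeleton genes 13 were higher (31.7%, against 34.2% of all genes) and 10 lower (24.4%, against 30.8%). The small proteins Pfn1, an actin regulator, and Myl6, a myosin light chain, had 1.12 and 0.99. The motor heavy chains Myh9 and Dync1h1 had −0.88 and −0.96. Of 14 selenoproteins counted among 26 listed, 8 (57.1%, against 34.2% of all genes) were higher and 2 lower (median 0.65 ± 0.07, SD, n = 3). The peroxidases Gpx1 and Gpx4 had 0.71 and 0.78, Selm and Msrb1 1.25 and 1.15, and Txnrd1 and Sepw1 −0.33 and −0.46.

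Regulated mRNAs were described one by one. Fth1, the heavy ferritin chain, measured 991, 1542 and 1238 CPM in total mRNA and 458, 739 and 515 CPM on heavy polysomes. It was lower in all 3 lysates, 2.21-fold with a loading of −1.15 (SE 0.10, edgeR adjusted p = 6.67e-06). Ftl1, the light chain, went from 1881, 1703 and 1641 CPM to 1234.1, 1059 and 995 CPM, 1.59-fold lower, and its counts are uncertain because the gene has close copies. The iron exporter Slc40a1 did not pass, at −0.16 (edgeR adjusted p = 0.512), and neither did Epas1, in which the letters were not found, at 0.36 (edgeR adjusted p = 0.492).

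Of 14 mRNAs known for control by upstream open reading frames, 4 were higher (28.6%) and 5 lower (35.7%), near the shares of all genes (34.2% and 30.8%). Slc35a4 measured 119.2, 110 and 108 CPM in total mRNA and 268, 251 and 203 CPM on heavy polysomes, a fold of 2.13, and Cebpb, Cebpa and Ppp1r15a had 1.05, 1.03 and 0.71. Ckap2 had −1.17, Ddit3 (CHOP) −0.74, Eif5 −0.70, Mdm2 −0.58 and Ibtk −0.44. The stress factors Atf4 and Atf5 had −0.14 (edgeR adjusted p = 0.306) and −0.03 (edgeR adjusted p = 0.905), and Tmem183a, Ifrd1 and Ppp1r15b, which did not pass either, −0.13, −0.06 and 0.08. Of 8 polyamine genes 5 were higher (62.5%, against 34.2% of all genes) and 2 lower (25%, against 30.8%). Oaz1, the antizyme whose synthesis needs a frameshift, went from 134.98, 109 and 114 CPM to 365, 286 and 291 CPM, a fold of 2.63. Srm had 1.05, Oaz2 0.67, Sat1 0.37 and Odc1, the first enzyme of the pathway, 0.25. Azin1 and Sms had −0.32 each, and Amd1 −0.17 (edgeR adjusted p = 0.221).

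Loading moved with the base composition of the transcript more than with any other feature examined. Across 11100 genes, Spearman's rho between loading and the GC content of the longest coding transcript was 0.68, and 0.73, 0.57 and 0.62 in lysates 1 to 3. In the 10% of genes with the lowest GC content (32.7% to 41.7%) the median loading was −0.66, with 3.15% of genes higher and 75.2% lower. In the 10% with the highest (58.1% to 72.9%) it was 0.83, with 78.4% higher and 0.901% lower. Lysate 1 had the steepest relation and the widest loading, with an interquartile range of 1.22 against 0.89 and 0.91. The relation was present for the coding sequence (rho 0.64) and the 3′ UTR (0.56) and weak for the 5′ UTR (0.12). These correlations are across genes of the same libraries, which are not independent replicates, and library preparation can also depend on GC content; its part in the relation was not tested.

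Short coding sequences were better loaded than long ones. The median loading was 0.57 for 251 genes under 300 nt, 0.48 from 300 to 500 nt, 0.22 from 500 to 1000 nt, −0.02 from 1000 to 2000 nt, −0.21 from 2000 to 4000 nt and −0.39 for 768 genes of 4000 nt and more. Spearman's rho with coding length was −0.28, and −0.39 after correction for GC content. In 3 equal groups of genes by GC content, the medians fell from 0.13 to −0.63 over length in the lowest group and from 0.64 to −0.43 in the middle one. In the highest group the genes under 300 nt (0.76) lay below those of 300 to 500 nt (0.85), and the median then fell to 0.43. Leaving out histone genes, an alternative added after the data were seen, left the 300 to 500 nt class at 0.44 and the order as it was. The number of upstream ATGs (rho −0.00) and the length of the 5′ UTR (rho −0.05) showed little relation with loading.

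**Figure D3:**
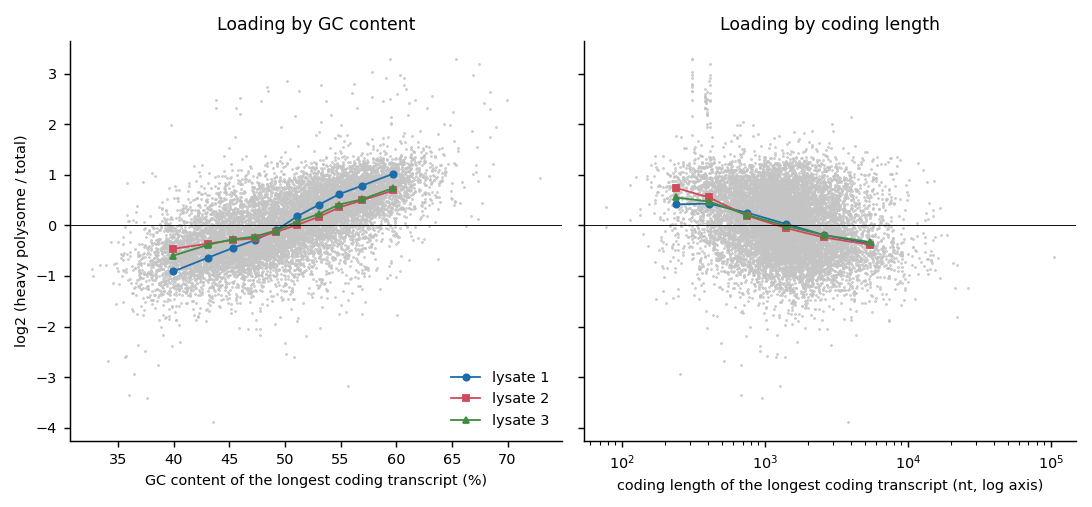
Loading (log2 heavy polysome over total) of 11100 genes (grey points) against the GC content in percent (left) and the coding length in nt on a log axis (right) of the longest coding transcript, with the median of each class in each control lysate as a line. Medians climb from −0.66 to 0.83 over 10 classes of GC content and fall from 0.57 to −0.39 over coding length.

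Each test was therefore repeated with the GC content of the transcript, or GC content and whole transcript length together, smoothed out of every library. Coding length itself was not corrected, and loading still fell with it under both corrections (rho −0.23). With GC content corrected, 26.8% of genes were higher and 25.6% lower, and with both, 25.6% were higher and 50.5% were called in either direction. The ends of the order stayed: histones had medians of 1.86 and 1.43, with 53 and 49 of 56 higher, and mitochondrially encoded mRNAs −1.70 and −1.89, with all 10 lower under either correction. Ribosomal proteins lost their place. The large subunit went from 0.42 to 0.15 and −0.11, with 12 higher and 13 lower under both corrections, and the small subunit from 0.51 to 0.33 and −0.06, with 8 higher and 10 lower. Respiratory chain subunits went from 0.76 to 0.53 and 0.22, with 37 higher and 8 lower, and mitochondrial ribosomal proteins from 0.49 to 0.36 and 0.15, with 31 higher and 7 lower. Zfp genes went from −0.48 to −0.21 and −0.17, with 42 higher and 93 lower. Immediate-early factors went from 0.36 to 0.06 and 0.03 and V-ATPase subunits from 0.36 to 0.10 and 0.07.

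Among the remaining lists, glycolysis went from 0.00 to −0.51 under either correction, with 12 of 17 lower and none higher under both. tRNA synthetases stayed at −0.34 and −0.32, with 15 of 20 lower and none higher under both. Chemokines and cytokines stayed at 0.44 and 0.38 and polyamine genes at 0.35 and 0.33. Cytosolic chaperones came nearer to the average, from −0.47 to −0.27 and −0.31, with 14 of 23 lower under both. The lysosome pathway went from 0.27 to 0.15 and 0.14, with 40 higher and 16 lower, and selenoproteins from 0.65 to 0.29 and 0.11, with 5 higher and 5 lower. Receptors and integrins moved from −0.07 to 0.21 and 0.20, with 12 higher and 5 lower, and the cytoskeleton from 0.06 to −0.18 and −0.24, with 6 higher and 17 lower. In all, the median took the opposite sign in 5 of 29 lists with GC content corrected and in 8 with both. Of 190 genes followed one by one, 24 took the opposite sign under at least 1 correction. Azin1 was lower as measured and higher with GC content corrected, at 0.34 (edgeR adjusted p = 0.00218). With both corrected, Rps18 (0.47 as measured) was lower at −0.36 (edgeR adjusted p = 0.00977) and Gpx4 (0.78 as measured) at −0.27 (edgeR adjusted p = 0.0258). Rps19, Atp6v1d, Amd1 and Ifrd1 were not called as measured. With both corrected, Rps19 was lower at −0.25 (edgeR adjusted p = 0.0184). Atp6v1d, Amd1 and Ifrd1 were then higher, at 0.41, 0.36 and 0.31 (edgeR adjusted p = 0.0004, 0.000644 and 0.00419). The sign changes of Rpl5, Vars, Srsf4, Cebpb, Sms, Ctsc and Ctsd did not pass the test.

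**Figure D4:**
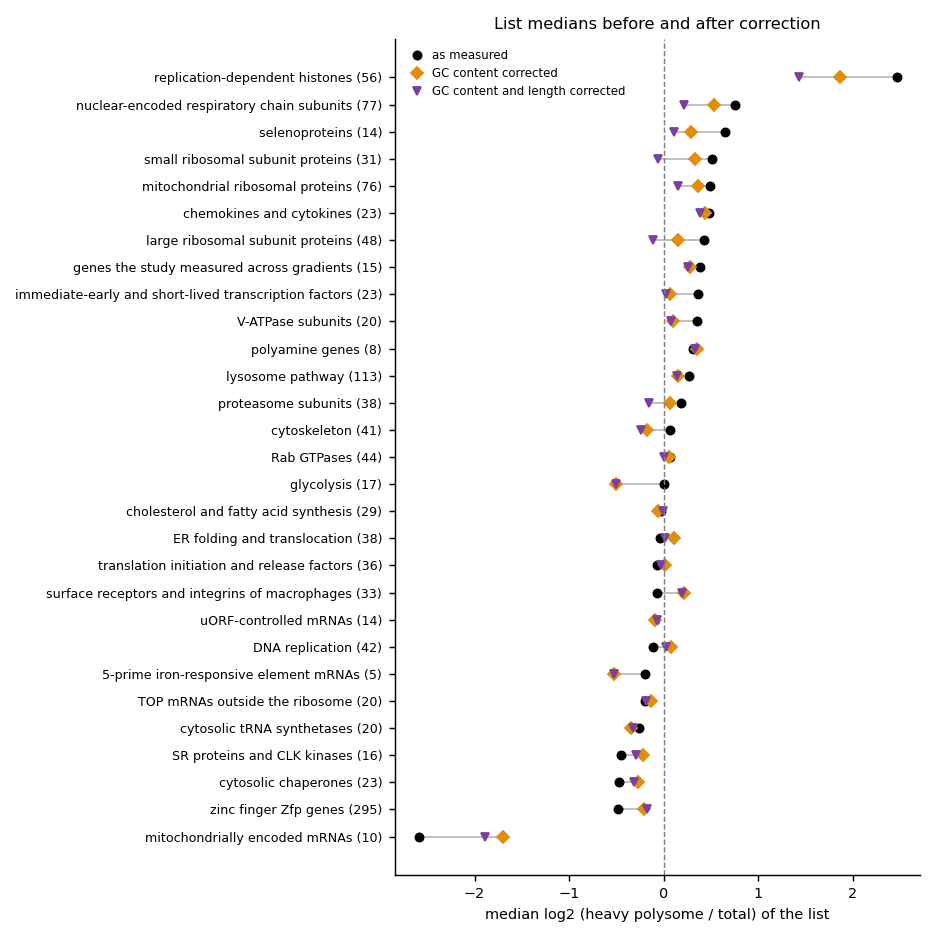
Median loading of the 29 gene lists as measured, with GC content corrected, and with GC content and transcript length corrected (symbols), on the log2 heavy polysome over total axis. Histones (2.46, 1.86 and 1.43) and mitochondrially encoded mRNAs (−2.59, −1.70 and −1.89) stay at the ends, and glycolysis moves from 0.00 to −0.51.

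Single genes lay far from the average under both corrections, which did not remove the relation of loading to coding length. Ybx1, an RNA-binding protein that packages untranslated mRNA, measured 793, 718 and 712 CPM in total mRNA and 296, 354 and 299 CPM on heavy polysomes, a loading of −1.23 as measured and −1.51 with both corrections. Fth1 and Ftl1 had −1.59 each with both corrections, Pabpc1 −1.48, Tpt1 −1.08 and Ddit3 −1.50. The ribosome-binding protein Rrbp1 had −1.20 as measured and −1.68 with both, and the large scaffold and motor proteins Dst, Golga4, Pcnt, Cep250 and Myh9 lay between −1.28 and −1.46 with both. Ezr, an actin linker, had −1.11 and −1.36. Cenpe, a kinesin of mitosis with a coding sequence of 7416 nt, went from 206, 195 and 260 CPM to 46.2, 64.4 and 68.0 CPM, and Ogfrl1 from 39.4, 41.1 and 40.7 CPM to 7.28, 13.4 and 10.9 CPM. These had −1.29 and −1.31 with both corrections. Gm5611, for which no transcript model was matched, had −1.97 as measured.

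Several short mRNAs of low GC content lay at the upper end under both corrections, with the same limit for coding length. Nop10, a part of the RNA pseudouridylation complex with a coding sequence of 195 nt, measured 46.1, 59.2 and 45.5 CPM in total mRNA and 102, 161 and 132 CPM on heavy polysomes, with loadings of 1.37 as measured and 1.40 with both corrections. Sf3b5, a splicing factor subunit, had 1.75 and 2.07, Cox7c of complex IV 0.98 and 1.33, the glutaredoxin Glrx 1.31 and 1.42, Chchd1 1.36 and 1.09, Snrpe 0.88 and 0.99, and Tomm7 0.98 and 1.15. H2afz and H3f3a kept 1.08 and 1.46. Ybx1, Tpt1, Rrbp1, Dst, Golga4, Pcnt, Cep250, Ezr and these short mRNAs were chosen after their values were seen. So were Hist1h1e, Hist3h2a, Hist2h3c2, H2afx, Eef1a1, Eif5a, Tnf, Gpx1, Gpx4, Rps18 and Rps19.

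Loading at rest was set beside loading in the treated lysates, to ask whether the order belonged to resting cells. A test of the difference in loading used the model with lysates as blocks. It did not use the experiment number that the labels share between treatments. Between control and LPS the test called 0 of 11243 genes (0%) at an adjusted p of 0.05 in edgeR. There were 164 genes at an unadjusted p under 0.05 in edgeR, a smaller share than the 0.05 expected if no gene differed. The 0 calls therefore do not show that loading was equal. Between control and LPS+torin1 the test also called 0 genes (0%), with 820 at an unadjusted p under 0.05. Tmem132a, Rps18 and Rps19 had the lowest adjusted p of that comparison, 0.229 each in edgeR. They were the 3 genes (0.0267%) that passed at 0.25. The study used 0.25 in another test, anota2seq, with further filters, for LPS against control and for LPS+torin1 against LPS. By that method it reported a subset of mRNAs with altered translation efficiency after LPS. Rps18 had loadings of 0.43, 0.55 and 0.42 in control, 0.73, 0.49 and 0.63 after LPS and −0.26, −0.18 and −0.41 after LPS+torin1. Rps19 had 0.18, 0.25 and 0.09 in control and −0.52, −0.58 and −0.79 after LPS+torin1. Control and LPS+torin1 lysates did not overlap for these genes, and the difference was 0.75 (SE 0.13) for Rps18 and 0.80 (SE 0.13) for Rps19.

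As lists, ribosomal proteins of the large subunit had medians of 0.63, 0.49 and 0.54 after LPS and 0.03, 0.08 and −0.13 after LPS+torin1, and those of the small subunit 0.67, 0.48 and 0.48 and −0.13, 0.07 and −0.33. All 3 control and all 3 LPS lysates lay above all 3 LPS+torin1 lysates. These medians, and the loadings of Rps18 and Rps19 above, were not corrected for GC content or length. The relation of loading to GC content differed between lysates, as given below, and its part in this separation was not tested. Mitochondrially encoded mRNAs lay between −1.82 and −2.55 after LPS and between −2.12 and −2.14 after LPS+torin1, within the range of the control lysates. Respiratory chain subunits lay between 0.59 and 0.81 after LPS and between 0.39 and 0.70 after LPS+torin1. Histones varied most: 2.16, 2.20 and 1.06 after LPS and 1.24, 2.77 and 0.47 after LPS+torin1. Histone mRNAs took 0.195% to 0.282% of total mRNA counts in control lysates and 0.0444% to 0.0862% in treated ones. The lysates with the lowest histone medians, LPS 3, LPS+torin1 1 and LPS+torin1 3, also had the weakest relation of loading to GC content, with rho 0.42, 0.31 and 0.30 against 0.57 to 0.73 in the others, and the part of either in the other was not tested. Over genes, loading in a control lysate correlated with that in another control lysate at Spearman's rho 0.83 to 0.87, with LPS lysates at 0.75 to 0.87 and with LPS+torin1 lysates at 0.64 to 0.87.

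**Figure D5:**
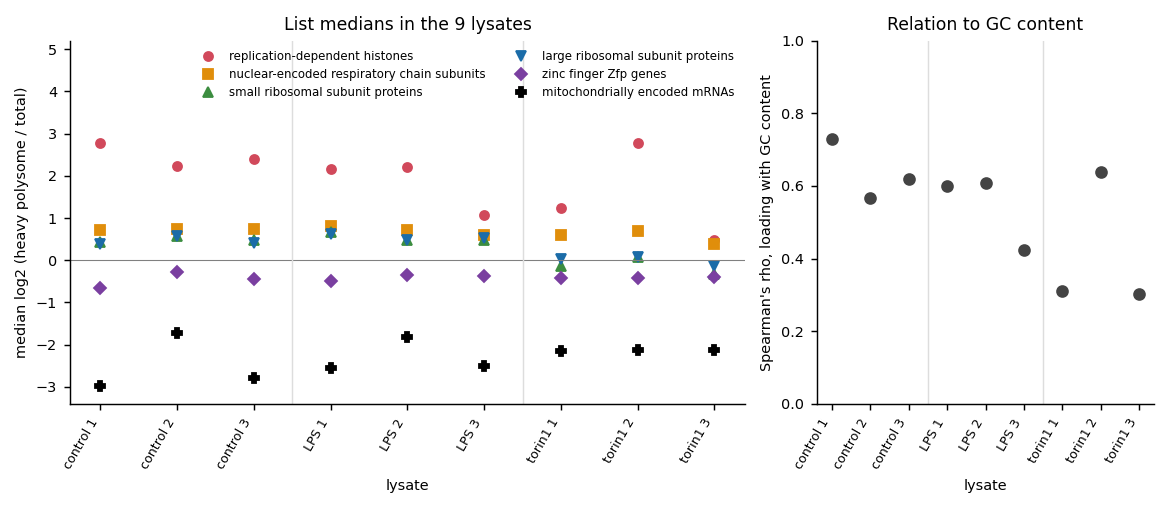
Median loading (log2 heavy polysome over total) of 6 gene lists in each of the 9 lysates (left), and Spearman's rho across genes between loading and GC content in the same lysates (right); torin1 stands for LPS+torin1. Ribosomal protein medians are 0.38 to 0.67 in control and LPS lysates and −0.33 to 0.08 after LPS+torin1, and rho is lowest in LPS 3, torin1 1 and torin1 3 (0.42, 0.31 and 0.30).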

How the data were processed

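RNA was sequenced after ribosomal RNA removal from 18 libraries of RAW264.7 cells, a total and a heavy polysome library from each of 9 lysates. The deposited values are whole-number counts, not normalised, which the authors obtained from a nextflow RNA-seq pipeline (1.3) with Hisat2 alignment to GRCm38 and featureCounts. How strand was treated in counting is not given in the sources used here, so genes overlapping on opposite strands, as 36 of 190 named genes overlap another counted gene, cannot be fully told apart. Genes with a 0 in any library are not in the table, and its 11243 genes were all tested.

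Counts were scaled by TMM and tested in R 4.3.3 with edgeR 4.0.16 (quasi-likelihood F test, two-sided). The model held 9 lysates as blocks and a heavy polysome minus total term for each treatment, with 6 residual degrees of freedom, and the control term was tested at a false discovery rate of 0.05 (Benjamini-Hochberg). p-values rest on how much the heavy polysome minus total difference varied between lysates of the same treatment. This spread was pooled over all 9 lysates, treated ones included, so it is not that of the control lysates alone. The paper describes the replicates as independent experiments. Whether they were separate cultures or passages of 1 line is not stated further. The numbers pair the libraries because both came from 1 lysate; deviations of same-numbered control libraries correlated at 0.55, 0.71 and 0.61, against a mean of −0.30 for different numbers. In counts simulated for this model over 11243 genes, 91% of the 200 altered by a log2 value of 1 were recovered, and 13 of the 195 calls were false. The simulated counts held no trend of loading with GC content, and far fewer genes were altered than were called in the data. The share of false calls in the data was therefore not measured.

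GC content and lengths came from the longest coding transcript of each gene in GENCODE M21 (GRCm38), available for 11100 genes (98.7%), of which names of 352 matched through older symbols. Corrections used a lowess curve (span 0.3) over genes with a mean of at least 10 counts in each library as an offset in the same model. The length corrected was that of the whole transcript, not of the coding sequence. Sequences came from GENCODE and RefSeq by symbol. Alternatives used DESeq2 1.42.0, other scalings and filters, no block, and each replicate left out.

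Members and gene lists were chosen with earlier results of these data known, so lists are described by counts and medians without a test. Genes named were the 10 highest and 10 lowest called genes with 1 sign in all lysates and a mean of at least 100 counts, the 2 highest and 2 lowest such members of each list, all members of 4 short lists, and those said to be chosen afterwards. Of the genes named by this rule, 4 are not reported here.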

Additional observations from a re-analysis of the deposited data

How the results depend on the processing

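The count of 7313 called genes ranged from 5521 without the replicate block to 8991 at a false discovery rate of 0.25. It was 7196 with DESeq2, 7670 with the 6 control libraries only, 5842 to 6598 with 1 replicate left out and 5679 with GC content and transcript length corrected. Without the block, which ignores the pairing by lysate, 2934 genes were higher and 2587 lower, and 33 of the 190 named genes lost their call, Ftl1 among them (adjusted p = 0.0798, edgeR). Other scalings moved the median of all genes by less than 0.1.

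Composition and length moved the list medians most. Correction for GC content, for length and for both gave 0.15, −0.0806 and −0.11 for the large ribosomal subunit, 0.33, 0.10 and −0.0587 for the small subunit, 0.36, 0.17 and 0.15 for mitochondrial ribosomal proteins, 0.53, 0.25 and 0.22 for the respiratory chain, and 1.86, 1.88 and 1.43 for histones. Correction for GC content and for both gave −1.70 and −1.89 for mitochondrially encoded mRNAs and −0.21 and −0.17 for Zfp genes. With the 6 control libraries only, mitochondrial ribosomal proteins had 0.46 and the respiratory chain 0.73, and with 1 replicate left out they had 0.45 to 0.50 and 0.71 to 0.74. The causes of these shifts were not tested.

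Signs changed for 24 of 190 named genes. With GC content corrected these had Rpl5 0.15, Vars −0.25, Srsf4 −0.11, Psmc6 0.0415, Cebpb −0.0714, Sms 0.082, Azin1 0.34, Ctsc 0.26, Ifrd1 0.31, Amd1 0.36, Sgsh −0.0368, Atp6v1d 0.38, Ctsd −0.0459 and Gpx4 −0.0174. With both corrected they had Rpl5 0.0905, Rps28 −0.0379, Eif3k −0.145, Vars −0.20, Srsf4 −0.16, Jund −0.0184, Cebpb −0.18, Sms 0.11, Azin1 0.42, Ctsc 0.26, Tyrobp −0.26, Ifrd1 0.31, Amd1 0.36, Odc1 −0.0043, Atp6v1d 0.41, Ctsd −0.10, Rps18 −0.36, Rps19 −0.25, Gpx1 −0.10 and Gpx4 −0.27. With length corrected Sat1 had −0.0075, B2m −0.12 and Rps18 −0.18.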
